A study of Mus musculus with 25 samples.

Results

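The genes described here code for integrins, syndecans and glypicans, the receptors with which cells hold on to matrix and to one another. They were all genes of the array annotation with a symbol starting with Itga, with Itgb and a number, or naming Sdc1 to Sdc4 or Gpc1 to Gpc6, except Itga6 and Itgb4. This gave 32 of 18194 genes: 15 integrin alpha chains, 7 integrin beta chains, 4 syndecans and 6 glypicans, read by 75 probe sets. A probe set is a group of array probes for 1 transcript, and 19 of the 32 genes had more than 1. A further probe set shared by Gpc2 and another gene was left out, and Itga11 and Itgad were not analysed here.

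RNA came from salivary glands of C57BL/6.NOD-Aec1Aec2 males of 5 ages, 4 weeks apart from 4 to 20 weeks, and each age had 5 mice and 5 Affymetrix mouse whole-genome arrays, 1 per mouse. These mice carry the NOD intervals Aec1 and Aec2 on the C57BL/6 background and develop a Sjögren's syndrome-like disease, so every group, the 4-week group included, holds both intervals, and age and disease stage cannot be told apart. Per the study's methods, each sample pooled 1 lobe of the submandibular, sublingual and parotid glands of 1 mouse, freed of lymph nodes, and each age drew on at least 2 litters. The C57BL/6J mice of the study were not analysed here.

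An integrin is a pair of 1 alpha and 1 beta chain. The alpha chain largely sets the ligand, while the tail of the beta chain joins the actin skeleton inside the cell. Syndecans, which span the membrane, and glypicans, which a lipid anchor holds on its outer face, carry heparan sulfate chains that bind matrix proteins and growth factors such as the fibroblast growth factors of branching salivary epithelium. Leukocytes use integrin chains of their own to leave the vessels and enter a gland.

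Values are log2 signals of the array, and a fold change is the difference of 2 such values. A gene counts as expressed where at least 1 of its probe sets had a mean over all arrays above the median probe set. Of the 32 genes 18 were expressed in this sense, and 14 had no such probe set. Rose, fell and passed stand for an adjusted p under 0.05 in limma, with adjustment over all 18194 genes. Signals of different genes are not compared, since probes differ in brightness. In RNA of whole glands, fewer cells of a type and less RNA per cell cannot be told apart.

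Mean log2 values per array were high for the acinar marker list (8.41 to 12.50) and the ductal marker list (10.14 to 12.18) on all 25 arrays. Single acinar genes differed widely between mice, Amy1 from 8.42 to 16.00 and Smgc from 3.64 to 13.12, whereas Aqp5 lay between 10.09 and 11.81. Smgc also fell at 16 and 20 weeks (-4.02 and -3.68, limma adjusted p = 0.0187 and 0.0361). The part of such differences in the values of the 32 genes was not tested. The array of mouse 3 at 20 weeks stood apart, with a median correlation of 0.8829 with the other arrays of its age against at least 0.9717 for each other array. Its Gapdh signal at the 3' end exceeded that at the 5' end by 3.87 log2 units (0.05 to 1.68 on the others), and it was the highest of the 25 arrays for 11 of the 32 genes and the lowest for 4. It was kept. Without it the sign of the 20-week fold change turned in 13 of the 32 genes, none of which passed with or without it, and 1 call at 20 weeks was gained, that of Gpc6. The 20-week fold change without it is given for Itga8, Itga9, Itgav, Itgb1, Itgb5, Sdc4 and Gpc6. At 12 weeks the median expressed gene of the array lay 0.14 above its 4-week value.

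Few of these genes changed with age. Only Itga8 rose at 8, 12 and 16 weeks against 4 weeks, and at 20 weeks Itga8 and Itgav rose and Sdc4 fell. Among all genes tested, 1.48% rose and 0.78% fell at 8 weeks, 5.66% and 1.36% at 12 weeks, 1.71% and 1.68% at 16 weeks, and 1.14% and 1.52% at 20 weeks. None of the 32 genes fell by limma at 8, 12 or 16 weeks. Unadjusted p under 0.05, in either direction, was met by 1, 4, 11 and 5 of them at 8, 12, 16 and 20 weeks. The share of all genes at this unadjusted threshold was not worked out, so these counts are not read as a change of the 32 genes. All 4 comparisons use the same 5 mice of 4 weeks.

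The test over all 5 ages was passed by 3 of the 32 genes, Itga8, Itgav and Sdc4, beside 4.66% of all genes. The B-statistic, a log odds of change with age, exceeded the methods' threshold of 1.5 for Sdc4 alone (2.83), beside 1.92% of all genes. From each age after 8 weeks to the one before it no gene of the 32 passed in limma, and among all genes 0.0055%, 0.0055% and 0.0275% passed. An unadjusted p under 0.05 was met by 2, 7 and 4 of the 32 at 12 against 8, 16 against 12 and 20 against 16 weeks. For these counts too the share of all genes was not worked out. The median fold change of the 32 genes was -0.025, -0.041, -0.017 and 0.045 at 8, 12, 16 and 20 weeks, against -0.03, -0.031, -0.015 and 0.037 over all genes. At 8 weeks 30 of the 32 lay within 0.5 log2 units of their 4-week mean, and 31, 27 and 29 did so at the later ages. These figures include the 14 genes with no expressed probe set. For the 18 expressed genes the median was -0.042, -0.066, -0.064 and 0.051, against 0.098, 0.14, 0.018 and 0.065 over all expressed genes. Of these 18, 17, 17, 14 and 15 lay within 0.5 at 8, 12, 16 and 20 weeks.

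**Figure D1:**
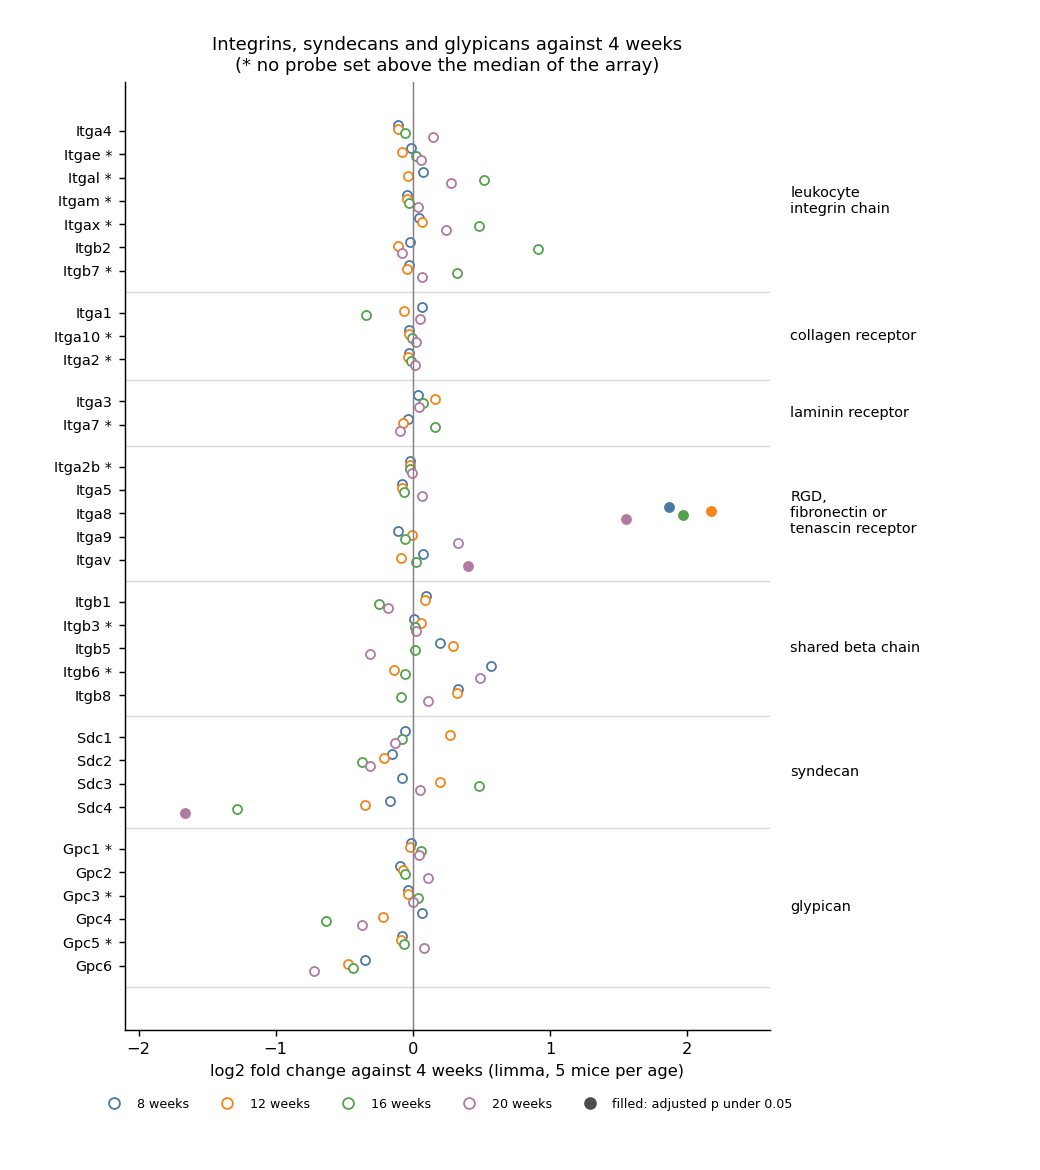
Log2 fold change of each of the 32 genes at the 4 later ages against 4 weeks (x axis, limma, 5 mice per age), grouped by role on the y axis, with filled points where the adjusted p was under 0.05 and an asterisk for genes with no probe set above the median. Most points sit within 0.5 of 0, and Itga8 on the right and Sdc4 on the left lie beyond 1.

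Itga8 codes for the alpha 8 chain, which pairs with beta 1, binds the matrix protein nephronectin and is known from smooth muscle and from mesenchyme. The 5 mice of 4 weeks had log2 values of 6.54, 5.61, 5.43, 4.49 and 6.59. At 8 weeks the values were 6.99, 7.22, 7.73, 7.74 and 8.31, and at 12 weeks 7.88, 7.89, 7.45, 8.20 and 8.06. At 16 weeks they were 7.95, 6.94, 7.66, 8.10 and 7.85, and at 20 weeks 8.14, 7.58, 5.65, 7.89 and 7.16. Every mouse of 8, 12 and 16 weeks thus lay above every mouse of 4 weeks, while mouse 3 at 20 weeks fell within the 4-week range. Itga8 was the only 1 of the 32 genes with all 5 values above those of 4 weeks at 8, 12 and 16 weeks, a separation seen in 4.58%, 12.5% and 2.22% of all genes. No gene of the 32 lay wholly below 4 weeks at 8 weeks or wholly above at 20 weeks, where 4.05% and 1.22% of all genes did.

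Means of Itga8 were 5.73 ± 0.87 at 4 weeks (SD, n = 5), 7.60 ± 0.51 at 8 weeks, 7.90 ± 0.28 at 12 weeks, 7.70 ± 0.46 at 16 weeks and 7.28 ± 0.98 at 20 weeks. Against 4 weeks the log2 fold change was 1.87 at 8 weeks (SE 0.41, limma adjusted p = 0.0189), a 3.64-fold increase, and 2.17 at 12 weeks (adjusted p = 0.00318), a 4.49-fold increase. It was 1.97 at 16 weeks (adjusted p = 0.00869, 3.92-fold) and 1.55 at 20 weeks (adjusted p = 0.0442, 2.94-fold). The increase was thus in place by 8 weeks, and the steps between later ages, 0.30, -0.20 and -0.41, did not pass. The 8-week call was lost without mouse 3 or 4 of 4 weeks or mouse 5 of 8 weeks (adjusted p 0.0563 to 0.0737). The 20-week call was lost without any 1 of 19 mice (adjusted p 0.0521 to 0.132) and kept without mouse 1 or 5 of 4 weeks, mouse 1 or 5 of 8 weeks, mouse 2 of 16 weeks or mouse 3 of 20 weeks. Without mouse 3 of 20 weeks it was 1.96 (adjusted p = 0.0021).

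The value of Itga8 rests on 1 of its 2 probe sets, 1454966_at, which passed on its own at 8, 12 and 16 weeks (adjusted p = 0.0248, 0.00427 and 0.0108 over all probe sets) and not at 20 weeks (0.0611). The other, 1427489_at, had a mean of 2.91, below the median probe set, with fold changes of 0.32, -0.02, 0.025 and 0.74 that did not pass. Its highest value, 5.07, was that of mouse 1 at 20 weeks. Averaging both lowered the fold changes of Itga8 to 1.09, 1.07, 1.00 and 1.15, of which those at 8 and 16 weeks missed the threshold (adjusted p = 0.0524 and 0.0662).

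The list of Acta2, Myh11, Cnn1 and Tagln, genes of smooth muscle and of the myoepithelial cells around acini, had mean log2 values per array of 8.83 to 10.59 at 4 weeks, 11 to 11.28 at 8 weeks, 11.17 to 11.40 at 12 weeks, 10.47 to 11.51 at 16 weeks and 7.75 to 11.39 at 20 weeks (10.57 to 11.39 without mouse 3). All 5 values of 8 and of 12 weeks thus lay above those of 4 weeks. The lowest array of 4 weeks was mouse 4 and that of 20 weeks mouse 3, both also the lowest of their age for Itga8. These 2 mice were the lowest of their ages for the basal epithelial list (Krt5, Krt14, Trp63; 5.28 and 5.50) and the ductal list (10.41 and 10.14) as well. At 12 weeks all values of the basal list (6.51 to 6.68) also lay above those of 4 weeks (at most 6.31). So did those of the ductal list (11.94 to 12.18 against at most 11.66). At 8 weeks both lists overlapped with 4 weeks. Of the 4 genes Acta2, Myh11, Cnn1 and Tagln, 2 rose at 12 weeks, beside 5.66% of all genes. The calponin gene Cnn1 rose by 1.91 (adjusted p = 0.0308) and the transgelin gene Tagln by 1.67 (adjusted p = 0.0474). None of the 4 passed at the other ages. In the fibroblast list genes fell (4, 5, 5 and 4 of 7 genes fell at 8, 12, 16 and 20 weeks). The part of these cells, and of the arrays of these 2 mice, in the Itga8 values was not tested.

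**Figure D2:**
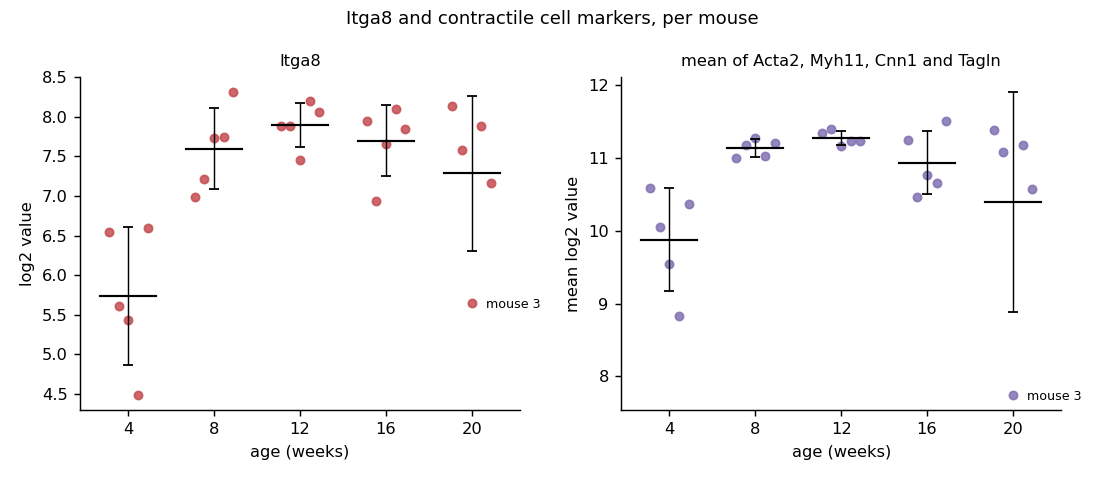
Log2 value of Itga8 (left) and mean log2 value of the contractile cell markers Acta2, Myh11, Cnn1 and Tagln (right) for each mouse against age in weeks, with the mean (bar) and SD of 5 mice. In both panels the 4-week mice sit low, and mouse 3 at 20 weeks, at 5.65 and 7.75, lies far below the other mice of its age.

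The known partners of Itga8 did not pass at any age. Its beta chain Itgb1 had fold changes of 0.09, 0.09, -0.25 and -0.18 (the last 0.08 without mouse 3 of 20 weeks, adjusted p = 0.792). The value of Itgb1 averages 5 probe sets, dim ones included. Its brightest pair moved further and did not pass. For 1426918_at the fold changes were 0.32, 0.26, -0.52 and -1.03, and for 1452545_a_at 0.30, 0.18, -0.40 and -0.32. Both had their lowest value of all arrays in mouse 3 of 20 weeks. The ligand of Itga8, nephronectin, Npnt, had -0.10, -0.074, -0.10 and 0.053. The other receptors of the same group, which bind the RGD motif of fibronectin and vitronectin or bind tenascin, were not called except for Itgav. Itga5, the fibronectin receptor chain, Itga9, which binds tenascin, and Itga2b, of platelets, had fold changes between -0.11 and 0.33, none of which passed. The highest, that of Itga9 at 20 weeks, was 0.05 without mouse 3 (adjusted p = 0.823).

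Itgav codes for the alpha v chain, which binds vitronectin and, with beta 6 or beta 8, frees latent TGF-beta. At 4 weeks its values were 4.79, 4.70, 4.89, 4.45 and 4.63. They were 4.65, 4.88, 4.79, 4.66 and 4.83 at 8 weeks and 4.57, 4.59, 4.64, 4.54 and 4.67 at 12 weeks. At 16 weeks they were 4.68, 4.66, 4.70, 4.71 and 4.83, and at 20 weeks 4.98, 5.12, 5.60, 5.03 and 4.75. In the 20-week group 4 mice lay above all 4-week mice and mouse 5 lay among them, so the groups overlap. The highest value was that of mouse 3.

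The fold change of Itgav was 0.40 at 20 weeks (SE 0.11, limma adjusted p = 0.041), a small increase, after 0.07, -0.09 and 0.024 at the earlier ages. Without mouse 3 of 20 weeks it was 0.28 and still passed (adjusted p = 0.028). The call was lost without any 1 of 15 mice (adjusted p 0.0503 to 0.12) and kept without mouse 1 or 3 of 4 weeks, mouse 1, 2 or 4 of 8 weeks, mouse 2 or 5 of 16 weeks or mouse 1, 3 or 5 of 20 weeks. Its value averages 5 probe sets, none of which passed alone. At 20 weeks the brightest, 1452784_at, moved by 0.78 (adjusted p = 0.357), 1421198_at by 0.85 (adjusted p = 0.284), and the other 3 by 0.076 to 0.18. The 2 probe sets with the larger shifts were not highest in mouse 3 (8.53 and 3.72 there), whereas the other 3 had their highest value of all arrays in it. With only the brightest probe set Itgav did not pass (adjusted p = 0.318), and after quantile normalization it did not either (0.49, adjusted p = 0.144).

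**Figure D3:**
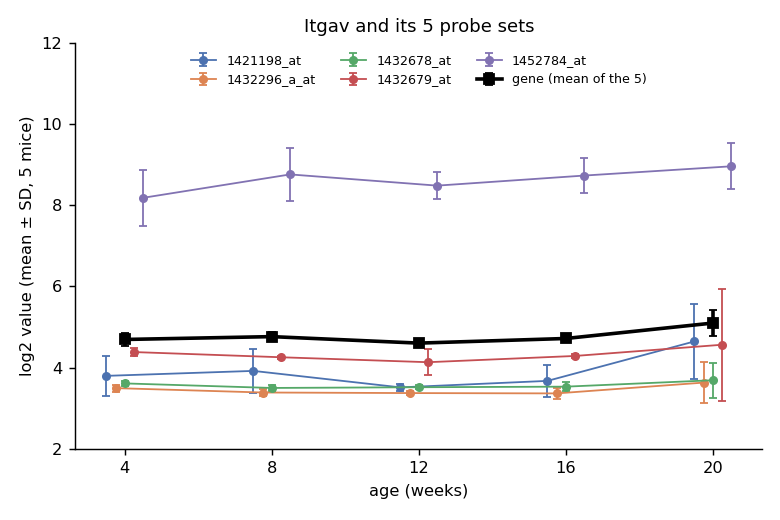
Mean log2 value and SD of 5 mice for the 5 probe sets of Itgav (thin lines) and for the gene, their mean (thick line), against age in weeks. The brightest probe set lies near 9 and the others between 3 and 5, and the gene moves by 0.40 from 4 to 20 weeks.

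The beta chains that pair with these alpha chains did not pass at any age. Itgb6 and Itgb8, partners of alpha v in TGF-beta release, had fold changes of 0.57 and 0.33 at 8 weeks, 0.49 and 0.11 at 20 weeks. Itgb6 has no expressed probe set and spread widely within an age, from 2.45 to 4.26 at 8 weeks. Itgb5, another partner of alpha v, had 0.20, 0.29, 0.018 and -0.31, with its lowest value of all arrays, 7.34, in mouse 3 at 20 weeks. Without that mouse its 20-week fold change was 0.00 (adjusted p = 0.987). Itgb3, of platelets and vessels, moved by at most 0.06.

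Among the collagen receptors (Itga1, Itga2, Itga10) and the laminin receptors (Itga3, Itga7) no gene passed. Itga1 had the largest shift of the collagen receptors, -0.34 at 16 weeks (adjusted p = 0.296), and its lowest value, 3.73, was in mouse 2 of 16 weeks. Fold changes of Itga3, a laminin receptor chain of epithelia, lay between 0.034 and 0.16, and those of Itga7, the chain of muscle, between -0.095 and 0.16. Itga2, Itga10, Itga2b and Itgae had all 5 values of 12 weeks below those of 4 weeks, by only 0.024 to 0.079 log2 units in the mean. None of these 4 genes is expressed, and 21.1% of all genes show the same separation at that age.

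Syndecan 4, Sdc4, a proteoglycan of focal adhesions, is read by 2 probe sets that behaved differently. The brighter one, 1448793_a_at, gave the value of the gene, because the dimmer one, 1417654_at, had a mean of 3.02, below the median probe set. For the brighter probe set the 4-week mice had 7.60, 8.24, 7.17, 7.39 and 7.35. At 8 weeks the values were 7.56, 8.16, 7.64, 6.40 and 7.11, and at 12 weeks 6.95, 7.51, 7.13, 7.28 and 7.11. They were 6.91, 5.27, 6.45, 6.26 and 6.46 at 16 weeks and 6.77, 6.68, 4.82, 6.00 and 5.16 at 20 weeks. All mice of 16 and of 20 weeks lay below all mice of 4 weeks, and those of 8 and 12 weeks overlapped with them. At 16 weeks Sdc4 and Sdc2 had all 5 values below those of 4 weeks, and at 20 weeks Sdc4, where 2.16% and 1.35% of all genes did.

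Sdc4 fell from 7.55 ± 0.41 at 4 weeks to 5.89 ± 0.88 at 20 weeks (SD, n = 5), a log2 fold change of -1.66 (SE 0.37, limma adjusted p = 0.0138) or 3.17-fold. It shifted by -0.17 at 8 weeks, by -0.35 at 12 weeks and by -1.28 at 16 weeks, and the last just missed the threshold (adjusted p = 0.0587). Without mouse 3 of 20 weeks, the lowest of all, it fell by 1.40 (adjusted p = 0.0187). The 20-week call was lost without mouse 2 of 4 weeks, the highest of all (-1.49, adjusted p = 0.051). The fold change was -1.07 (adjusted p = 0.0198) without the 3 arrays of lowest correlation, mouse 2 of 16 weeks and mice 3 and 5 of 20 weeks, which hold the 3 lowest Sdc4 values of the 25. This last choice was made after seeing the data. On these 3 arrays the actin signal at the 3' end exceeded that at the 5' end by 3.68, 5.36 and 3.75 log2 units. On the other arrays it did so by at most 3.21. The same difference for Gapdh, 1.21, 3.87 and 1.11, stood out only in mouse 3 of 20 weeks. The part of RNA quality in the Sdc4 values was not tested.

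The dimmer probe set of Sdc4 peaked at 12 weeks. Its values were 2.51, 2.53, 2.56, 2.52 and 2.53 at 4 weeks, and 2.50, 2.52, 2.47, 3.80 and 3.67 at 8 weeks. At 12 weeks they were 3.94, 4.53, 4.81, 3.87 and 4.23. At 16 weeks they were 3.75, 2.57, 2.65, 2.53 and 2.49, and at 20 weeks 2.49, 2.47, 2.63, 2.50 and 2.55. The signal was therefore near its floor in all mice of 4 and 20 weeks, and above 3.5 in all 5 mice of 12 weeks, in mice 4 and 5 of 8 weeks and in mouse 1 of 16 weeks. The rise at 12 weeks was 1.75 (SE 0.26, limma adjusted p = 6.0e-04 over all probe sets), or 3.35-fold, and it passed under all alternatives run that keep this probe set, with each mouse left out in turn (1.61 to 1.85). Fold changes at 8, 16 and 20 weeks, 0.46, 0.27 and -0.0028, did not pass.

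At 12 weeks the 2 probe sets differed in how far they shifted. Within each array the dimmer less the brighter one differed by -5.02 ± 0.42 at 4 weeks (SD, n = 5) and by -2.92 ± 0.39 at 12 weeks, a gap narrower by 2.10 (two-sided exact permutation p = 0.00794, the smallest that 252 divisions of 10 mice allow, and 0.0106 after adjustment over the 4 ages). At 8 weeks the gap was narrower by 0.64 (exact p = 0.373). At 16 and 20 weeks it was narrower by 1.55 and 1.66, but the dimmer probe set was near its floor there in all mice except mouse 1 of 16 weeks, as in all mice of 4 weeks, so a fall could not have been read on it and the gap restates the shift of the brighter one. With both probe sets averaged Sdc4 rose by 0.70 at 12 weeks and fell by 0.83 at 20 weeks. Which part of the transcript each probe set reads is not given in the sources used here.

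**Figure D4:**
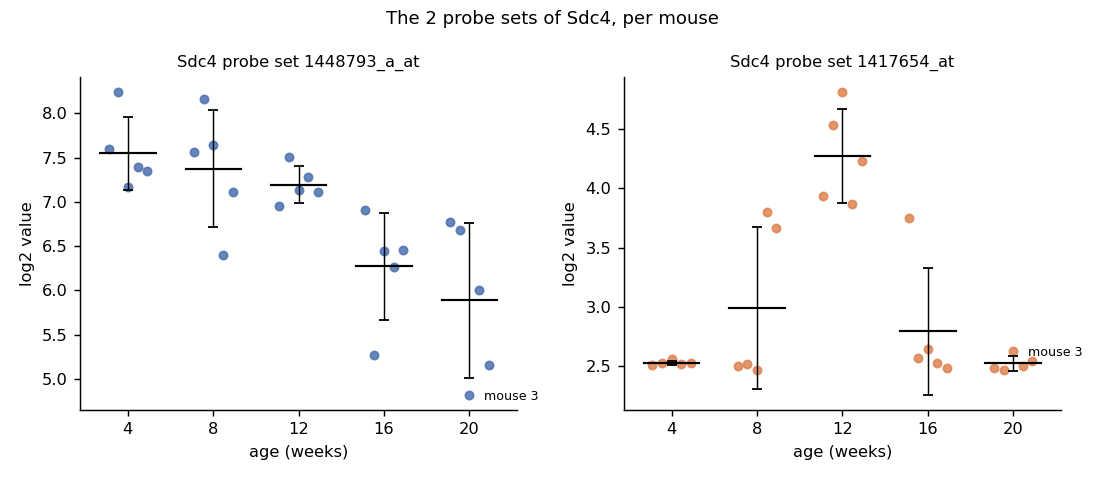
Log2 value of the brighter (left) and dimmer (right) probe set of Sdc4 for each mouse against age in weeks, with the mean (bar) and SD of 5 mice. The brighter declines from 7.55 at 4 weeks to 5.89 at 20 weeks, and the dimmer leaves its floor near 2.5 in all 5 mice of 12 weeks, in 2 of 8 weeks and in 1 of 16 weeks.

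Tested singly, 4 of the 75 probe sets passed at some age: both of Sdc4, 1454966_at of Itga8 and 1415944_at of Sdc1. The last, with a mean of 3.26 just under the median probe set, rose at 12 weeks by 0.39 (adjusted p = 0.0148). At 12 weeks 3 of the 75 rose, beside 3.96% of all probe sets, and at 20 weeks 1 fell, beside 0.947%. At 8 and at 16 weeks 1 rose, that of Itga8, beside 1.03% and 1.32%. None fell at 8, 12 or 16 weeks or rose at 20 weeks by limma, where 0.486%, 0.99%, 1.16% and 0.701% of all probe sets did.

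Sdc1, the main syndecan of epithelia and of plasma cells, had a gene fold change of 0.27 at 12 weeks (adjusted p = 0.204) and of at most 0.13 in size at the other ages. Its brightest probe sets moved at 12 weeks by 0.62 and 0.18 and did not pass.

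Sdc2, Sdc3 and Gpc6 came close to the threshold, and their values by mouse are given for that reason, a choice made after seeing them. Sdc2, a syndecan of mesenchyme, had 4.12, 4.28, 4.21, 4.07 and 3.98 at 4 weeks and 3.74, 3.72, 3.73, 3.86 and 3.74 at 16 weeks. Every 16-week mouse lay below every 4-week mouse, with a fold change of -0.37 (limma adjusted p = 0.0702). At the other ages Sdc2 shifted by -0.15 (8 weeks), -0.21 (12 weeks) and -0.31 (20 weeks).

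Sdc3, a syndecan known from nerve and muscle, had 3.66, 3.69, 3.65, 3.52 and 3.66 at 4 weeks and 4.26, 3.67, 4.14, 4.23 and 4.25 at 16 weeks. In the 16-week group 4 mice stood above all mice of 4 weeks and mouse 2 did not (fold change 0.48, adjusted p = 0.0593). At 12 weeks the values were 3.66, 4.53, 3.67, 3.65 and 3.67, with mouse 2 alone high. The 8-week mice lay between 3.29 and 3.67 and the 20-week mice between 3.62 and 3.77. Both Sdc2 and Sdc3 passed at 16 weeks without mouse 3 of 20 weeks.

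Of the glypicans none passed. Gpc6 had 4.64, 3.50, 3.90, 3.47 and 4.44 at 4 weeks and 3.48, 3.16, 3.31, 3.20 and 3.21 at 20 weeks, a fold change of -0.72 (adjusted p = 0.0692; -0.73 and 0.0478 without mouse 3 of 20 weeks). The groups overlapped only in that mouse 1 of 20 weeks, at 3.48, lay just above mouse 4 of 4 weeks, at 3.47. Values at 8 weeks were 3.45, 3.46, 3.42, 3.64 and 4.23, at 12 weeks 3.25, 3.43, 3.44, 3.66 and 3.81, and at 16 weeks 3.45, 3.47, 3.40, 4.11 and 3.33. Only 1 of its 5 probe sets is expressed. Gpc4 had -0.63 at 16 weeks (adjusted p = 0.283), with a 4-week mean of 5.14 ± 0.42 (SD, n = 5). Gpc1, Gpc2, Gpc3 and Gpc5 moved by at most 0.11, and of these only Gpc2 is expressed. Gpc3, known as a brake on growth before birth, lay between 2.83 and 3.28 on all arrays.

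No integrin chain of leukocytes passed at any age with all arrays at equal weight, but 4 of the 7 were higher in mice 3 and 4 of 16 weeks than in any of the other 23 mice. They are Itgb2, a beta chain of leukocytes, Itgal, which makes LFA-1 with it, Itgax, of dendritic cells and macrophages, and Itgb7, of lymphocytes that home to the gut. They were singled out after their values were seen. Of the 7, Itgb2 and Itga4 alone are expressed.

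Itgb2 at 16 weeks was 4.44, 3.92, 5.91, 6.07 and 3.86, and the other 20 mice lay between 3.10 and 5.03. Itgal was 2.19, 2.20, 3.57, 3.54 and 2.12, with at most 2.92 elsewhere. Itgax was 2.32, 2.22, 3.49, 3.18 and 2.30, and Itgb7 2.53, 2.57, 3.54, 3.12 and 2.52, with at most 2.70 and 2.73 elsewhere. In each of the 4 genes the mean of 16 weeks was raised by these 2 mice, and the other 3 lay among the mice of other ages. Fold changes at 16 weeks were accordingly 0.91 for Itgb2 (limma adjusted p = 0.24), 0.52 for Itgal (0.346), 0.48 for Itgax (0.154) and 0.32 for Itgb7 (0.221). Without the 3 arrays of lowest correlation, which do not include these 2 mice, Itgb2 (1.14, adjusted p = 0.0418), Itgax (0.60, 0.0233) and Itgb7 (0.39, 0.0417) passed at 16 weeks, and that choice was made after seeing the data. Under that choice Itga4 (-0.10, adjusted p = 0.0341) and Itgam (-0.05, 0.0328) fell at 16 weeks. Itga4 also fell at 8, 12 and 20 weeks under it (-0.11, -0.11 and -0.17), and Itgam at 12 weeks (-0.04). Itgax also passed without mouse 2 of 16 weeks (0.60, adjusted p = 0.0469) and with array weights (0.48, adjusted p = 0.0385). With array weights Itga4 fell at 8, 12 and 20 weeks (-0.11, -0.13 and -0.16) and Itgam at 12 weeks (-0.05). Over all genes, 2.5% were higher in these 2 mice than in all others. Itga4, a chain of lymphocyte homing, Itgae, of lymphocytes within epithelium, and Itgam, of neutrophils and macrophages, were not. The gene value of Itga4 leaves out its probe set 1436037_at, whose mean lay below the median probe set. That probe set was 2.94 and 2.57 in these 2 mice, 3.20 and 2.83 in mice 4 and 5 of 4 weeks, and at most 2.33 elsewhere. The other probe sets of Itga4 were not highest in any of these mice.

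Markers of B cells, and some of T cells and macrophages, were high in the same 2 mice. Ptprc, the leukocyte antigen CD45, was 10.01 and 9.89 there and at most 9.01 in the others, and the B cell gene Cd79a was 8.64 and 8.52 against at most 5.71. The macrophage gene Lyz2 was 12.49 and 12.42 against at most 11.23. The T cell gene Cd3e (3.71 and 3.09) and the macrophage gene Adgre1 (7.46 and 7.27) were higher elsewhere, at up to 4.04 and 7.98. The 4-week mice, the baseline of the fold changes, were uneven as well. Their Ptprc values were 5.45, 4.56, 6.68, 8.15 and 7.73, and those of the B cell gene Cd79b 3.03, 3.06, 4.17, 6.06 and 5.38. The B cell list of 3 genes had a mean log2 value of up to 8.98 at 16 weeks and of at most 5.89 at the other ages, and the list of 5 T cell genes reached 4.66 at 16 weeks and at most 3.64 elsewhere. No gene of the leukocyte, T cell, B cell or neutrophil lists passed at any age, and none of the 3 neutrophil genes measured is expressed. In the list of macrophages and dendritic cells Cd14 alone passed, with a rise of 1.32 at 12 weeks (adjusted p = 0.0456). Of the lymph node genes, Cr2, a marker of follicular dendritic and B cells, was 4.51 and 4.89 against at most 3.68, whereas Glycam1, made by the vessels through which lymphocytes enter lymph nodes, was 7.79 and 7.12 and reached 9.62 in mouse 4 of 4 weeks. The 2 arrays were also the closest pair of all (correlation 0.9970). They shared identical values at 43 of 34958 probe sets, so their values are not copies. The labels name them as separate biological replicates, and they were counted as 2 samples. The values alone cannot tell whether both arrays read RNA of the same mouse. The part of leukocytes in the integrin values was not tested.

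**Figure D5:**
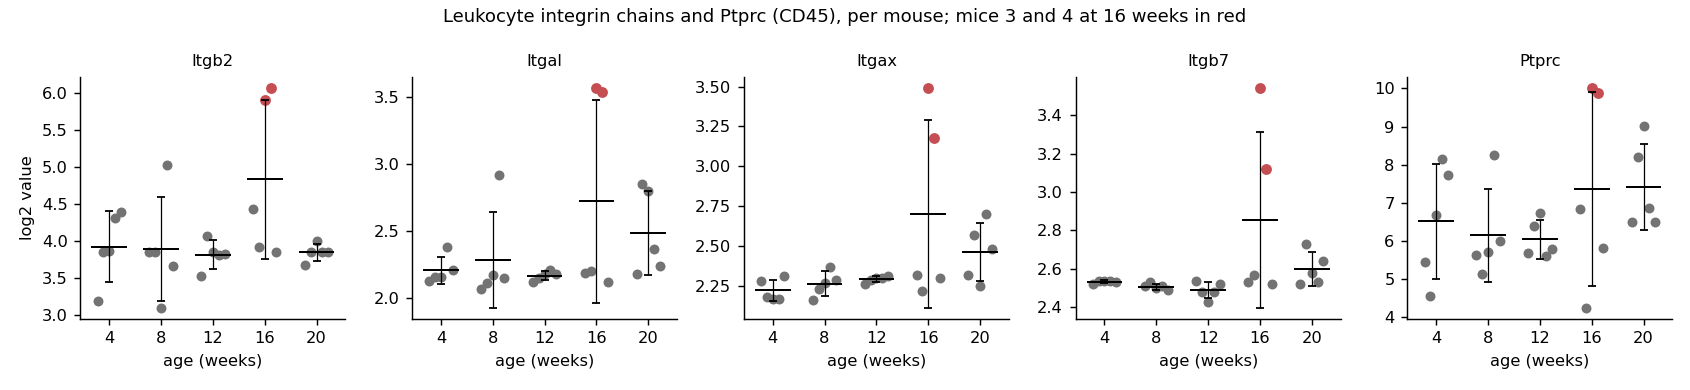
Log2 value of Itgb2, Itgal, Itgax, Itgb7 and, for comparison, Ptprc for each mouse against age in weeks, with the mean (bar) and SD of 5 mice and mice 3 and 4 of 16 weeks in red. In each panel these 2 mice are the highest of all 25.

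Genes that work with these receptors were read from 4 lists. Of 23 cytoplasmic adhesion proteins measured, 1, 2, 1 and 0 rose at 8, 12, 16 and 20 weeks, beside 1.48%, 5.66%, 1.71% and 1.14% of all genes, and none fell. Lims2, which codes for the adaptor PINCH-2, rose by 0.68, 0.84 and 0.85 at 8, 12 and 16 weeks (0.56 at 20 weeks, adjusted p = 0.107), and Pxn, the paxillin gene, rose by 0.85 at 12 weeks (adjusted p = 0.0202). The alpha-actinin gene Actn1 passed over all ages (adjusted p = 0.0314), with fold changes of 0.40, 0.17, -0.14 and -0.73 that did not pass singly. The median fold change of the list, whose genes were not all expressed, was 0.33, 0.39, 0.19 and -0.026. Over all genes it was -0.03, -0.031, -0.015 and 0.037, and over all expressed genes 0.098, 0.14, 0.018 and 0.065. The values over all genes also stand beside the medians of the lists below.

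Of 24 integrin ligands, 3, 3, 6 and 5 fell at 8, 12, 16 and 20 weeks, beside 0.78%, 1.36%, 1.68% and 1.52% of all genes. The median fold change of the list was -0.053, -0.084, -0.034 and 0.0056. The collagen genes Col1a1 and Col1a2 and the laminin chain gene Lama2 fell at all 4 ages, by 3.40, 3.38 and 1.23 at 16 weeks. Col4a2, of basement membranes, fell at 16 and 20 weeks (-1.81 and -2.0), and so did Fbln5, the fibulin 5 gene (-0.43 and -0.39). Col4a1 fell at 16 weeks (-1.37) and missed the threshold at 20 weeks (adjusted p = 0.0536). Jam2, a junction protein of vessels, was the only ligand that rose, by 1.40 at 12 weeks (adjusted p = 0.0203), where 5.66% of all genes rose. The genes of fibronectin, vitronectin and tenascin C (Fn1, Vtn, Tnc) did not pass. Col1a1 and Col1a2 also stand in the fibroblast list given above.

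Among 26 genes that build or trim heparan sulfate, Sulf2, which removes sulfate groups outside the cell, fell by 0.60 at 16 weeks (adjusted p = 0.0302) and by 0.63 at 20 weeks (adjusted p = 0.0259). Hs3st1, a sulfotransferase gene, fell by 0.96 at 16 weeks, and Fam20b, whose kinase acts on the linker of the chains, rose by 0.54 at 12 weeks. Of 11 partners of syndecans and glypicans, Fgf7, a growth factor that binds heparan sulfate, rose by 0.94 at 12 weeks (adjusted p = 0.0402), and none fell. At 20 weeks Sulf2 was the only gene of both lists that passed. Beside these, 5.66% of all genes rose at 12 weeks, and 1.68% and 1.52% fell at 16 and 20 weeks. Median fold changes were -0.019, -0.027, -0.013 and 0.073 for the heparan sulfate genes and 0.017, -0.034, -0.015 and 0.059 for the partners.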

How the data were processed

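The files deposited by the authors hold log2 expression values of 45101 probe sets on 25 arrays. The summary step is named GCRMA in the study's methods and RMA in the submitters' processing notes, and no version is given in the sources used here. Such summaries compress differences near background, so changes of dim probe sets can be understated. Values lay between 0.13 and 16.94, with array medians of 3.17 to 3.64 and upper quartiles of 5.19 to 5.98, and were used as deposited. The number of mice, 5 at each age, and the signal over background set the precision.

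Of 35890 annotated probe sets, 34958 with 1 symbol were used (34754 by matched gene ID), and 932 with several symbols and 9211 not listed were left out. A gene was the mean of its probe sets above 3.27, the median probe set mean, or of all where none was (18194 genes, 11696 with such a probe set). limma 3.58.1 (R 4.3.3) was run over all 25 arrays at once with no covariate: contrasts between ages, a moderated F-test over 5 ages, both adjusted by Benjamini-Hochberg over all genes, and B-statistics of polynomials of age (prior share 0.01, threshold 1.5). Single probe sets were fitted likewise, with adjustment over all 34958. The fit was tested on simulated data. The within-array difference of the Sdc4 probe sets was tested by exact permutation (scipy 1.17.1, numpy 2.4.6, pandas 2.3.3, Python 3.11.15). Figures were drawn with matplotlib 3.10.9.

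Alternatives were all probe sets averaged, the brightest probe set, expressed genes only, quantile normalization, an array's upper quartile as covariate, array weights, a trend and robust prior, a prior share of 0.05, the replicate number as a block, the 2 ages compared only, and each array left out. Leaving out the 3 arrays of lowest correlation was added after seeing the data. Every one of the 32 genes could be named, with values by mouse for those past a contrast with 4 weeks, the F-test or the B-statistic threshold. Partner lists were given by counts, with values for up to 4 genes past the F-test, and the partner genes named beyond those were chosen after their values were seen. The genes, the partner lists and the cell type markers were chosen with earlier results of these data known.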

Additional observations from a re-analysis of the deposited data

Results flagged for a closer look

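Among the 55 groups of 5 mice behind the values given by mouse, 8 held 1 mouse whose gap to its nearest neighbour, as a share of the range of the group, passed Dixon's critical value of 0.71. Chance alone flags about 1 group in 20, and over all 32 genes 28 of 160 groups (17.5%) passed. For Sdc3, mouse 4 was low at 4 weeks (3.52, gap share 0.775), mouse 2 was high at 12 weeks (4.53, gap share 0.982) and mouse 2 was low at 16 weeks (3.67, gap share 0.787). For Gpc6, mouse 5 was high at 8 weeks (4.23, gap share 0.721) and mouse 4 at 16 weeks (4.11, gap share 0.817). Sdc2 was high in mouse 4 of 16 weeks (3.86, gap share 0.862), and Itgal in mouse 4 of 8 weeks (2.92, gap share 0.882). The dimmer probe set of Sdc4 was high in mouse 1 of 16 weeks (3.75, gap share 0.873).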

How the results depend on the processing

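No fold change of Itga8, Itgav or Sdc4 given as passed changed its sign under any alternative run. Itga8 at 12 weeks passed under all of them, from 1.07 to 2.38. Counts of the 32 genes moved as follows, the reported count first. The share of all genes called under each alternative, or with each array left out, was not worked out. These counts therefore do not tell a gain of the 32 genes from more calls over the whole array. At 8 weeks 1 rose, and 0 did with all probe sets averaged or with only the 2 ages fitted; 0 fell, and 2 did with array weights and 1 without the 3 arrays of lowest correlation. At 12 weeks 1 rose, and 2 with all probe sets averaged or array weights; 0 fell, and 1 with all probe sets averaged or the 2 ages, 8 with weights and 6 without the 3 arrays. At 16 weeks 1 rose, and 0 with all probe sets averaged or the 2 ages, 2 with quantile normalization, the upper quartile covariate or expressed genes only, 3 with weights and 5 without the 3 arrays; 0 fell, and 1 with all probe sets, quantile normalization, expressed genes or the 2 ages, 3 with the covariate, 4 with weights and 7 without the 3 arrays. At 20 weeks 2 rose, and 1 with the brightest probe set, quantile normalization or the trend and robust prior and 0 with the 2 ages; 1 fell, and 2 with quantile normalization or expressed genes, 3 with the covariate, 6 with weights, 7 without the 3 arrays and 0 with the 2 ages. The F-test called 3, and 5 with the covariate or without the 3 arrays and 10 with weights. The B-statistic called 1, and 2 with quantile normalization, the covariate or a prior share of 0.05 and 5 with weights. Between successive ages 0 passed, and 3 with weights. The brighter Sdc4 probe set at 20 weeks was -1.66 with the 2 ages, no longer past the threshold (adjusted p = 0.268). The dimmer one drops out where only expressed probe sets are tested. The 22 and 24 values gained with weights and without the 3 arrays include many shifts near 0.1. The cause was not tested.

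With each array left out in turn, the number of increases was 0 to 1 at 8 weeks, 1 at 12 weeks, 1 to 3 at 16 weeks and 0 to 2 at 20 weeks, and that of decreases 0, 0, 0 to 2 and 1 to 2. Calls were gained by Gpc6 at 20 weeks (without mouse 2 or 4 of 4 weeks, mouse 5 of 8 weeks or mouse 3 of 20 weeks) and, at 16 weeks, by Sdc2 (mouse 3 or 4 of 8 weeks, mouse 1 or 3 of 20 weeks), Sdc4 (mouse 4 of 8 weeks, mouse 1 or 3 of 20 weeks), Sdc3 (mouse 2 of 12 or 16 weeks, mouse 3 of 20 weeks) and Itgax (mouse 2 of 16 weeks). The F-test called 2 to 4, the B-statistic 0 to 2 and successive ages 0. The brighter Sdc4 probe set ranged from -1.88 to -1.40 at 20 weeks and was lost without mouse 2 of 4 weeks (-1.49) or mouse 5 of 20 weeks (-1.48, adjusted p = 0.055 over all probe sets).

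Mice of equal number at different ages share only the number: over 50 such pairs the correlation of deviations ran from -0.607 to 0.597 (median -0.038), and 7 of 25 arrays correlated best with their own number. With the replicate number as a block the counts were those reported (1, 1, 1 and 2 rose and 0, 0, 0 and 1 fell), and no call changed.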

Other observations

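Itgb1, the beta chain shared by most matrix integrins, has 6 probe sets, and in mouse 3 of 20 weeks they moved apart. The brightest pair, 1426918_at and 1452545_a_at, were at 3.46 and 3.80 there, the lowest of the 25 arrays for both, while 1426919_at, 1426920_x_at and 1438119_at had their highest values of all arrays in it (5.11, 4.57 and 1.92). Itgb5 split in a similar way in this mouse. Of its 4 probe sets, 1417533_a_at was at 3.55 and 1417534_at at 7.20, both the lowest of all arrays, whereas 1456195_x_at, at 9.83, lay among the other mice of its age (9.41 to 9.94).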
